A study of Mus musculus with 13 samples.

Results

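The chaperones described here are 10 genes of the mouse microglial transcriptome whose products fold proteins. Hsp90ab1, Hsp90aa1 and Hspa8 act in the cytosol, and Hsp90b1, Hspa5, Calr, Canx, Pdia3, Pdia4 and Pdia6 act in the endoplasmic reticulum (ER). They are 10 of the 17280 genes used, and they were chosen by name after Hsp90ab1 and Calr had been seen to differ between control and 3-day high-fat diet (HFD) cells. The 3-day values are therefore given without a test. All 10 genes were found in each of the 13 plate tables, and 9 of them, all but Pdia4, had enough transcripts to be among the 2336 genes tested.

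Chaperones bind unfolded or partly folded proteins, and those of the HSP70 and HSP90 families do so in cycles of ATP binding and hydrolysis. In the cytosol, proteins of the HSP70 family such as the constitutive HSC70 hand clients to the HSP90 dimer, which matures kinases and steroid receptors. In the ER lumen the same families are represented by BiP and GRP94, while a lectin cycle retains glycoproteins for folding and protein disulfide isomerases form and reshuffle disulfide bonds. Unfolded proteins in the ER activate the transcription factors ATF6 and XBP1, which act on ER stress elements in promoters, and heat shock factor acts on heat shock elements of cytosolic chaperone genes. Microglia, the resident macrophages of the brain, secrete and display many proteins that mature through the ER.

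Single CD45lo CD11b+ microglia of the hypothalamus were sorted from male C57BL/6J mice into 13 plates of 192 wells and sequenced by CEL-Seq2, a 3′ method that counts transcripts by molecular identifiers. The GEO labels call the tissue brain, and the study's methods call the sequenced cells hypothalamic. Control mice received standard chow with 23.6% of calories from fat, and HFD mice received a diet with 60% fat for 1 day, 3 days, 1 week, 4 weeks, 9 weeks or 16 weeks. All mice were of the same wild-type strain with no further treatment, and their age is not given in the sources used here. Cells with at least 1500 transcripts numbered 722 for control, 161 for 1 day, 121 for 3 days, 172 for 1 week, 128 for 4 weeks, 82 for 9 weeks and 231 for 16 weeks, out of 2496 wells. The replicates with at least 5 cells numbered 19, 6, 4, 5, 3, 2 and 5 in the same order. A replicate is an identifier that the authors' table of wells gives, kept apart between sets of plates with no identifier in common. It need not be 1 mouse. Cells were summed per replicate and plate into 68 sums, and the p-values measure the spread between these sums. A replicate on several plates entered more than once, so the degrees of freedom are overstated.

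RefSeq promoter sequences (250 bases before to 50 after the transcription start, build GRCm38.p6) were matched for the 7 ER chaperones and for no cytosolic one (Hsp90ab1, Hsp90aa1 and Hspa8). They are shown because most of them hold the ER stress element. ER chaperone genes are known targets of the factors that act on this element, so its presence here is a description with no test. The ER stress element, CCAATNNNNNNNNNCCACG, was searched on both strands and found in 5 of these 7 promoters, Hsp90b1, Hspa5, Calr, Canx and Pdia6, against 39 of all 32851 promoters in the table (0.119%). Hsp90b1 held 2 copies. In the 3 sequences that follow, written 5′ to 3′ along the gene, capitals mark the element. The promoter of Hsp90b1 lies at chr10:86705395-86705694 on the minus strand, that of Hspa5 at chr2:34771840-34772139 on the plus strand, and that of Calr at chr8:84846882-84847181 on the minus strand.
Hsp90b1: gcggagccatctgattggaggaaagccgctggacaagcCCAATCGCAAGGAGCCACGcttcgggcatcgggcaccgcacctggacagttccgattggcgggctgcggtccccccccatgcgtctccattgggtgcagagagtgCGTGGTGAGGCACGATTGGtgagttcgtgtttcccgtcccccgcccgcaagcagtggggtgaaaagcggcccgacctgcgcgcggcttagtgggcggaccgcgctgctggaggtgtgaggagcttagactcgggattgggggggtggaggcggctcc
Hspa5: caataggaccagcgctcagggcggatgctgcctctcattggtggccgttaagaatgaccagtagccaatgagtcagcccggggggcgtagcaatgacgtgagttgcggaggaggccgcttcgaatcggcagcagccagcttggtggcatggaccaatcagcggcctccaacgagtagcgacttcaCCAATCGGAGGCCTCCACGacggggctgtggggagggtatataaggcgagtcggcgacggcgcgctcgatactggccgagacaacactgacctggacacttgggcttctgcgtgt
Calr: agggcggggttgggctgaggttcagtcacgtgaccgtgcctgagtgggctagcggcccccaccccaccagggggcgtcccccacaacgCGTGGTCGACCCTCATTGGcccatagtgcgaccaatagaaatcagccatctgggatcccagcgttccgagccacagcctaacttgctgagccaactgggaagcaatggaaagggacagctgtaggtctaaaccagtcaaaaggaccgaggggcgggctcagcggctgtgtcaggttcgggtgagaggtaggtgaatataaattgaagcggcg
In Hspa5 the element ended 47 bases before the start, in Calr 144 bases before it, and in Hsp90b1 194 and 89 bases before it. The Calr copy and the Hsp90b1 copy nearer the start lie on the opposite strand. In Canx the element was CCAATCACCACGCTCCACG, ending 127 bases before the start, and in Pdia6 it was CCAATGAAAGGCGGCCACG, ending 80 bases before the start. The promoters of Pdia3 and Pdia4 held no match in this window. The shorter ER stress element II, ATTGG and CCACG with 1 base between them, was in 12 of all promoters (0.037%) and in none of the 7, and the heat shock element of 3 alternating units, GAA, TTC and GAA with 2 bases between neighbours, was in 198 (0.6%) and in none of the 7, both strands searched. ER stress elements I and II share the letters CCACG. A match is a run of letters, and no factor binding was measured.

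Each sum held between 22774 and 219199 transcripts (median 65244), so that 1 transcript was worth 4.56 to 43.9 CPM, that is, transcripts per 1000000 transcripts over the genes used. The 12 microglial markers were detected with at least 3 transcripts in 99.8% of cells, and their summed level had a median of 40230 CPM in control sums and between 39655 and 44260 CPM in the HFD groups. Markers of antigen-presenting cells, led by the MHC class II genes, were at 3 or more transcripts in 25.6% of 3-day, 17.4% of 1-week and 16.4% of 4-week cells and in 1.11% of control cells. The monocyte list was at this level in 2.48% of 3-day, 2.91% of 1-week and 2.34% of 4-week cells and in 0.277% of control cells, and the list of border-associated macrophages in 1.65%, 2.91%, 1.56% and 0.277%. Ccr2, the 1 monocyte gene tested, had a log2 change of 2.05 at 1 week (unadjusted p = 0.0372, adjusted p = 0.999 by edgeR), 1.79 at 3 days and 0.71 at 4 weeks. Each list covers 14 cells in all. Of 95 cells with antigen-presenting markers, 60 were among the 118 cells of plate 4 and 20 among the 79 of plate 5. On these plates the cells with the markers held Hsp90ab1 at 547 CPM and Calr at 529 CPM, and the other 117 cells at 384 and 557 CPM, with median depths of 5201 and 3886 transcripts. The lymphocyte list was at 3 or more transcripts in 8.07% of 1-day and 17.7% of control cells, almost all from Ighm (log2 -0.54 at 1 day, unadjusted p = 0.00919, adjusted p = 0.762 by edgeR). A fit without the cells at 3 or more marker transcripts of any other type gave 1-day log2 changes of 0.57 for Hsp90ab1 and 0.41 for Calr. With all cells they were 0.52 and 0.39. The part of the lymphocyte list alone was not tested. The neutrophil marker S100a9 reached 11597 CPM in 1 sum of 4 weeks (median 46.9), and 2 cells, both of 4 weeks, held 3 or more of its transcripts. The fit without cells of other types also left these cells out. Its 4-week log2 changes were 0.21 for Hsp90ab1, 0.14 for Calr and -0.91 for Hspa8, against 0.38, 0.21 and -0.75 with all cells. The part of S100a9 alone was not tested. Plate 4 had 1 control sum, replicate M26 with 7 cells and 29842 transcripts, and plate 5 had no control cells, so values of 3 days, 1 week and 4 weeks within plate 4 rest on that sum. Fewer chaperone transcripts in every cell and fewer cells that express them cannot be told apart in these sums.

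Together the 10 chaperones made up 0.462% of all transcripts, 0.121% for the cytosolic and 0.341% for the ER members. CEL-Seq2 counts each molecule at its 3′ end, so the levels are molecules and are not divided by length. Over all cells, Hsp90b1 (GRP94, the ER form of HSP90) was the most abundant at 946 CPM, followed by Hspa5 (BiP, the ER form of HSP70) at 724 CPM, Hsp90ab1 (HSP90 beta, the constitutive cytosolic form) at 689 CPM and Calr (calreticulin) at 650 CPM. Canx (calnexin) was at 419 CPM, Hspa8 (HSC70) at 350 CPM, Pdia3 (ERp57) at 343 CPM, Pdia6 at 293 CPM and Hsp90aa1 (HSP90 alpha, the stress-inducible cytosolic form) at 171 CPM. Pdia4 (ERp72) was at 35.4 CPM, from 183 transcripts in all. The ranges over the 44 replicates overlapped for every pair of neighbours in this order, from 375 to 1512 CPM for Hsp90b1 and from 134 to 1380 CPM for Hsp90ab1.

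At least 1 transcript was found in 88.3% of cells for Hsp90b1, 78.6% for Calr, 76.9% for Hspa5 and 75.8% for Hsp90ab1 (exact 95% binomial interval 73.6 to 77.8%). It was found in 31.6% of cells for Hsp90aa1 and 10.3% for Pdia4. These shares follow depth, the interval covers counting error only, and the share that free RNA could give was not assessed. After thinning each cell to 1000 transcripts, the shares were 59.7% for Hsp90b1, 45.8% for Hsp90ab1 and 13.6% for Hsp90aa1.

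Hsp90ab1, the gene that led to this choice of genes, was higher after 1 day of HFD than in control cells of the same plates, although the difference did not pass the adjustment over all genes. On plate 6 the HFD sums were at 740, 896 and 1340 CPM and the control sums at 469, 601 and 657 CPM. On plate 8 the HFD sums were at 682, 814 and 965 CPM and the control sums at 583, 598 and 821 CPM. All 6 HFD sums lay above the control mean of their plate, without overlap on plate 6 and with overlap on plate 8. The fitted change was 1.44-fold (95% interval 1.09 to 1.9, log2 0.52 ± 0.20 SE, unadjusted p = 0.0120, Benjamini-Hochberg adjusted p = 0.762 by the quasi-likelihood test of edgeR). At 1 day no gene (0%) passed an adjusted p of 0.05, and 114 of the genes tested (4.88%) had an unadjusted p under 0.05, among them Hsp90ab1 and Calr of the 9 members tested.

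At 16 weeks Hsp90ab1 was lower, with one replicate far above the others. The 5 replicates held 176 (M10), 349 (M9), 357 (M5), 380 (M6) and 1074 CPM (L4). Replicate L4 was sorted on plates 2 and 3, where it held 562 and 1488 CPM beside 949 and 1288 CPM in the control replicate L3. The direction against control was thus opposite on these plates, in sums of the same identifiers. Of the 10 HFD sums, 7 lay below the control mean of their plate, and the fitted change was 0.80-fold (interval 0.64 to 1.00, log2 -0.33 ± 0.16, unadjusted p = 0.0473, adjusted p = 0.977 by edgeR). At 16 weeks 0% of genes were called and 4.75% had an unadjusted p under 0.05, and Hsp90ab1 was the 1 of 9 members among these.

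**Figure D1:**
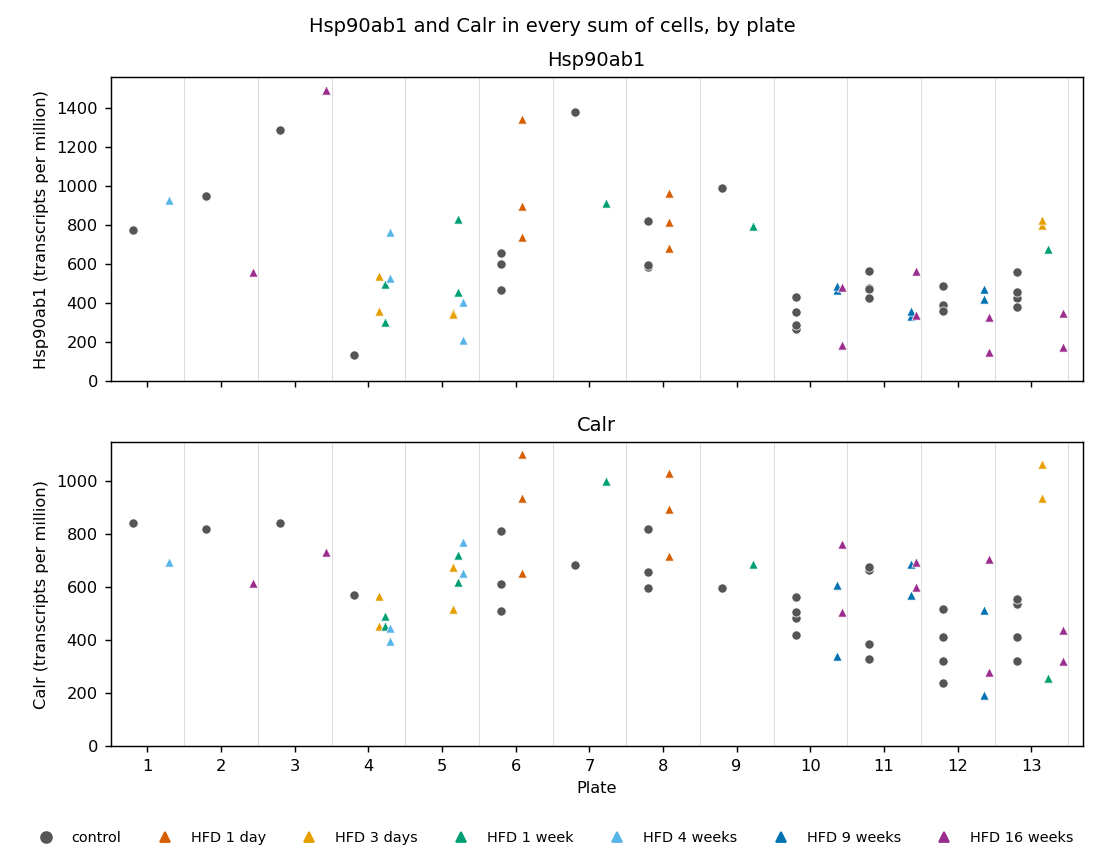
Hsp90ab1 (upper panel) and Calr (lower panel) in CPM, for each of the 68 sums of cells per replicate and plate, with plates along the horizontal axis, circles for control and triangles for HFD. Hsp90ab1 of control sums ran from 134 CPM on plate 4 to 1380 CPM on plate 7, and the 1-day triangles on plates 6 and 8 lie above the mean of the circles for both genes.

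At 3 days, the contrast that chose the gene, Hsp90ab1 was at 800 and 827 CPM in replicates M17 and M18 of plate 13, where the 4 control sums were at 381, 428, 455 and 561 CPM. On plate 4 it was at 537 and 360 CPM, and at 134 CPM in the control sum, which rests on 4 transcripts (exact Poisson interval 36.5 to 343 CPM). The 4 HFD sums on plates with control cells thus lay above their controls, with mean levels of 1.78 times the control on plate 13 and 3.34 times on plate 4. The fitted log2 change was 0.30 ± 0.22 in the joint fit of all lengths, 0.91 in a fit of plates 4 and 13 alone, and 0.78 without plates 4 and 5. At 3 days 0% of genes were called and 4.67% had an unadjusted p under 0.05, and nothing is read from this contrast. At 4 weeks the log2 change was 0.38 ± 0.24, with 927 CPM against 775 CPM on plate 1 and 531 and 766 CPM against 134 CPM on plate 4. At 1 week Hsp90ab1 lay above control on plates 4 and 13 and below it on plates 7 and 9 (log2 0.19 ± 0.21, and -0.26 without plates 4 and 5), and at 9 weeks the log2 change was 0.01 ± 0.21.

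Hsp90aa1, the form that heat shock induces, had the lowest level of the 9 members tested over all cells, with one control sum, M1 of plate 7, at 636 CPM. At 9 weeks its 6 HFD sums held 0 to 107 CPM and its 12 control sums 52.3 to 229 CPM. Replicate M7 was at 85.2, 107 and 84.0 CPM on plates 10, 11 and 12, and replicate M8 at 0, 45 and 22.5 CPM. The 0 came from 51043 transcripts, which allows up to 58.8 CPM at a limit of 3 transcripts. All 6 sums lay below the control mean of their plate, and their range overlapped that of the controls. The fitted change was 0.52-fold (interval 0.30 to 0.89, log2 -0.95 ± 0.40, unadjusted p = 0.0186, adjusted p = 0.660). Without M8 the log2 change was -0.22, and without M7 it was -2.17. At 9 weeks 0% of genes were called, 6.34% had an unadjusted p under 0.05, and Hsp90aa1 was the 1 of 9 members among these. At the other tested lengths its log2 changes were 0.34 ± 0.31 at 1 day, -0.54 ± 0.30 at 1 week, -0.02 ± 0.38 at 4 weeks and -0.45 ± 0.25 at 16 weeks. Without the control replicate M1 of plate 7 the 1-week value was -0.069.

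Hspa8, the constitutive HSP70 of the cytosol, was lower than control at 1 week and 4 weeks before adjustment. At 4 weeks the sums with control cells beside them held 108 CPM on plate 1 and 314 and 250 CPM on plate 4, against 155 and 302 CPM in the controls. At 1 week they held 498, 374 and 162 CPM on plates 7, 9 and 13, where the control means were 796, 642 and 334 CPM, and 341 and 342 CPM on plate 4. The 1-week sums thus lay below control on plates 7, 9 and 13 and above it on plate 4, and 2 of the 3 sums of 4 weeks lay below it. The log2 change was -0.53 ± 0.25 at 1 week (unadjusted p = 0.0381, adjusted p = 0.999) and -0.75 ± 0.31 at 4 weeks (unadjusted p = 0.0175, adjusted p = 0.997). Without plates 4 and 5 these values were -0.81 and -0.50. Without the cells that held 3 or more marker transcripts of any other cell type they were -0.52 and -0.91. The joint 4-week value lies beyond the ratios to control of both plates with control cells, 0.70 on plate 1 and 0.93 on plate 4. No gene (0%) was called at either length, 4.2% and 4.11% had an unadjusted p under 0.05, and Hspa8 was the 1 member among them each time. At 1 day the log2 change was 0.38 ± 0.25, with 5 of 6 sums above the control mean, and at 16 weeks it was -0.31 ± 0.19, with 9 of 10 sums below it. Leaving out 1 replicate moved the 16-week value from -0.56 (without M6 of plates 10 to 12) to -0.13 (without the control replicate L3 of plates 2 and 3), and the 1-day value from 0.21 (without the control M9 of plate 6) to 0.51 (without the control M13 of plate 8). At 3 days all 4 sums beside controls lay below the control mean (log2 -0.86 ± 0.29), the lowest being 63.6 CPM in M18.

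Hsp90b1 and Hspa5, the HSP90 and HSP70 of the ER, are given next. Hsp90b1 was at 916 to 1124 CPM after 1 day on plate 6 and 954 to 1365 CPM on plate 8, and its controls spanned 713 to 1183 CPM and 1058 to 1472 CPM. Its log2 changes lay between -0.16 ± 0.12 at 16 weeks and 0.12 ± 0.18 at 4 weeks over the 5 tested lengths. Those of Hspa5 lay between -0.26 ± 0.19 at 1 week and 0.26 ± 0.21 at 4 weeks. Without plates 4 and 5 the Hspa5 values were -0.58 at 1 week and -0.14 at 4 weeks, and at 1 week Hspa5 lay below control on plates 7, 9 and 13 and above it on plate 4. The log2 changes of Hspa5 at 1 day and 9 weeks were 0.22 ± 0.19 and -0.18 ± 0.19. Neither Hsp90b1 nor Hspa5 had an unadjusted p under 0.05 at any tested length, and the 95% intervals allow up to 1.4-fold for Hsp90b1 and 1.6-fold for Hspa5 at 4 weeks. On plate 13 at 16 weeks, Hsp90b1 was at 395 and 375 CPM against 702 to 927 CPM in the 4 controls, below all of them.

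Calr, the soluble lectin chaperone that also buffers ER calcium, was higher after 1 day of HFD on both plates, short of the adjusted threshold. On plate 6 the HFD sums were at 656, 939 and 1103 CPM and the controls at 512, 613 and 813 CPM. On plate 8 the HFD sums were at 721, 896 and 1031 CPM and the controls at 598, 659 and 821 CPM. All 6 HFD sums lay above the control mean of their plate, and the groups overlapped on both plates. The change was 1.31-fold (interval 1.02 to 1.68, log2 0.39 ± 0.18, unadjusted p = 0.0347, adjusted p = 0.976). From 1 week on, the log2 changes were between 0.04 ± 0.18 at 9 weeks and 0.21 ± 0.19 at 1 week, none with an unadjusted p under 0.05. The 4-week value was 0.21 ± 0.22 in the joint fit, although all 3 sums beside controls lay below them, with 695 against 843 CPM on plate 1 and 446 and 397 against 570 CPM on plate 4. In a fit of plates 1 and 4 alone it was -0.31.

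At 3 days Calr differed between plates. On plate 13, replicates M17 and M18 held 936 and 1066 CPM and the 4 controls 321, 414, 538 and 558 CPM, so that both HFD sums lay well above every control. On plate 4 the HFD sums held 568 and 454 CPM and the control sum 570 CPM (exact Poisson interval 332 to 912 CPM). The joint log2 change was 0.56 ± 0.19. Without plates 4 and 5, which leaves plate 13 alone for this length, it was 1.32 ± 0.26. This setting was added after the data were seen, and Calr had been chosen on this contrast, so the values are a description.

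The other ER members at 3 days also depended on the plates. On plate 13 the log2 changes without plates 4 and 5 were 0.66 ± 0.25 for Hspa5, 0.63 ± 0.23 for Hsp90b1, 0.73 ± 0.32 for Pdia3 and 0.71 ± 0.31 for Pdia6, and 0.13 ± 0.29 for Canx. Of these genes, Hspa5, Pdia3 and Pdia6 lay above the control in both sums of plate 4 as well, and Hsp90b1 in 1 of the 2. Canx lay below the control in both. In the joint fit the same changes were 0.08 ± 0.20 for Hspa5, 0.24 ± 0.17 for Hsp90b1 and 0.25 ± 0.23 for Pdia3. They were 0.10 ± 0.24 for Pdia6 and -0.03 ± 0.20 for Canx. Plate 13 had 1 cell with antigen-presenting markers among 120, and plate 4 had 60 among 118. The part of these cells, or of the 7 control cells of plate 4, in the difference between plates was not tested.

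Canx, the membrane-bound lectin chaperone, was at 454, 555 and 594 CPM after 1 day on plate 6, where 2 controls were at 156 and 241 CPM and the other at 469 CPM. On plate 8 it was at 356, 389 and 455 CPM and its controls at 353, 444 and 625 CPM, so that the direction differed between these plates. Its log2 changes over the 5 tested lengths lay between -0.16 ± 0.14 at 16 weeks and 0.22 ± 0.20 at 1 day, with no unadjusted p under 0.05. On plate 13 Canx was at 615 CPM after 1 week and at 395 and 456 CPM after 16 weeks, all above the 4 controls at 248 to 355 CPM, while on plate 2 it was at 353 CPM after 16 weeks against 520 CPM in the control.

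Among the disulfide isomerases, Pdia3, the partner of calreticulin and calnexin, was above the control mean in all 5 sums of 1 week, at 1.13 to 1.46 times the control on 4 plates (log2 0.18 ± 0.22). Its largest log2 change was 0.40 ± 0.25 at 4 weeks, which was -0.16 without plates 4 and 5. Pdia6, a further isomerase of the ER lumen, had its largest change in the joint fit at 16 weeks, with 7 of 10 sums above the control mean (log2 0.31 ± 0.16, unadjusted p = 0.0650, adjusted p = 0.977). That value was 0.15 without M6 of plates 10 to 12 and 0.42 without the control L3 of plates 2 and 3. Without plates 4 and 5 the 4-week value of Pdia6 was -0.47. At 1 day and 9 weeks the log2 changes were -0.15 ± 0.23 and -0.17 ± 0.21 for Pdia3 and 0.09 ± 0.25 and 0.06 ± 0.22 for Pdia6. Pdia4 was not tested. After 1 day its 6 HFD sums held 41.3 to 114 CPM and its 6 controls 0 to 78.1 CPM, from 28 and 9 transcripts, or 71.5 CPM (exact Poisson interval 47.5 to 103) against 24.5 CPM (11.2 to 46.6). All 6 HFD sums lay above the control mean of their plate, although the intervals cover counting error only and this contrast was picked after its values were seen. At 16 weeks Pdia4 was at 41.8 CPM (28.4 to 59.3) against 37.7 CPM (28 to 49.7).

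**Figure D2:**
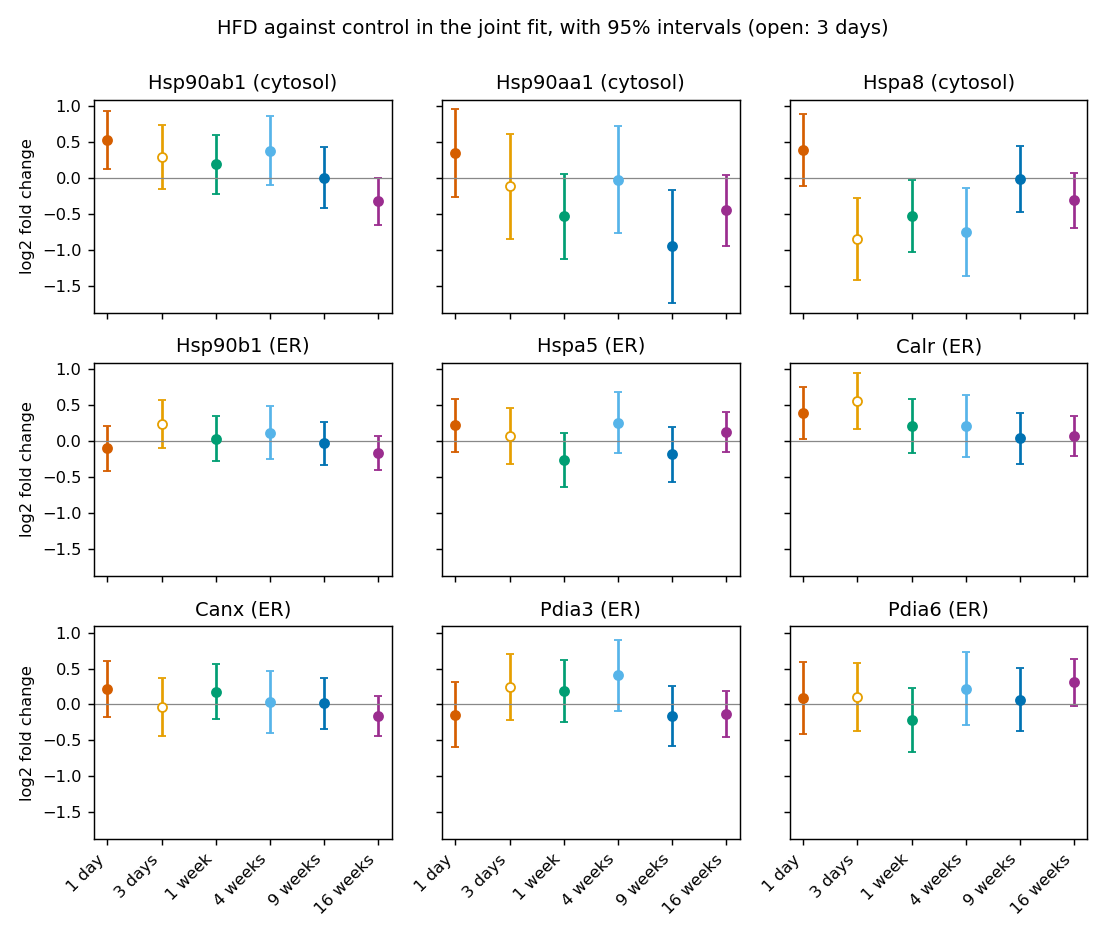
Fitted log2 fold changes of HFD against control for the 9 tested chaperones at each HFD length, with 95% intervals, from the joint edgeR fit, cytosolic genes in the upper row and ER genes in the others. Open symbols mark 3 days, which chose the genes. Hsp90ab1 runs from 0.52 at 1 day to -0.33 at 16 weeks, and the ER genes stay between -0.26 and 0.40 at the tested lengths.

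Over the 9 members tested, 7 had positive log2 changes at 1 day (median 0.22, beside 0.00 over all genes tested), 5 at 1 week (median 0.04), 7 at 4 weeks (0.21), 4 at 9 weeks (-0.02) and 3 at 16 weeks (-0.16). At 3 days 6 were positive, with a median of 0.10. Without plates 4 and 5 the positive members numbered 3 at 1 week (median -0.26), 3 at 4 weeks (-0.14) and 8 at 3 days (0.66), so the balance at these lengths depends on those plates, while at 1 day it was 7 again (0.22). Adjusted p-values of members lay between 0.660 and 1 at the 5 tested lengths. All comparisons are against one pool of control cells in a shared fit, so they are not independent of each other.

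The HFD effects at different lengths were also set against each other in the same fit, leaving out 3 days, a comparison added after the data were seen. Between 1 day and 16 weeks, whose cells shared no plate, the 3 cytosolic chaperones had the largest differences. The log2 difference, 1 day minus 16 weeks, was 0.85 ± 0.26 for Hsp90ab1 (unadjusted p = 0.00156, adjusted p = 0.914), 0.70 ± 0.32 for Hspa8 (unadjusted p = 0.0297) and 0.80 ± 0.40 for Hsp90aa1 (unadjusted p = 0.0475, both with an adjusted p of 1.00). Thus 3 of 9 members had an unadjusted p under 0.05, where 4.45% of all genes tested had one, and no gene passed the adjustment. The 6 ER members tested lay between -0.21 and 0.38. The HFD effect on Hspa8 was also larger at 1 day than at 1 week (0.91 ± 0.36) and 4 weeks (1.14 ± 0.40), and that on Hsp90aa1 larger at 1 day than at 9 weeks (1.30 ± 0.50), with unadjusted p of 0.0118, 0.00551 and 0.0116 and edgeR adjusted p between 0.847 and 0.907. The effect on Hsp90aa1 was larger at 1 day than at 1 week (0.88 ± 0.43), and that on Hsp90ab1 larger at 1 week and 4 weeks than at 16 weeks (0.52 ± 0.25 and 0.71 ± 0.28), each with an unadjusted p under 0.05 and an adjusted p of at least 0.902. Without the control replicate M1 of plate 7 the difference for Hsp90aa1 was 0.41, and without plates 4 and 5 those for Hsp90ab1 were 0.047 and 0.58, while the difference between 1 day and 16 weeks was 0.82. The difference for Hsp90aa1 between 1 day and 9 weeks was 0.55 without M8 and 2.51 without M7 of 9 weeks. That for Hsp90ab1 between 1 week and 16 weeks was 0.23 without M23 and 0.81 without M2 of 1 week. The share of all genes with an unadjusted p under 0.05 was 4.97% for 1 day against 1 week, 4.11% against 4 weeks and 4.88% against 9 weeks. It was 5.18% for 1 week against 4 weeks, 5.05% for 1 week against 16 weeks and 5.14% for 4 weeks against 16 weeks. Of the ER members, none reached an unadjusted p of 0.05 in any of the 10 pairs of lengths except Hspa5 between 1 week and 4 weeks (-0.52 ± 0.21, adjusted p = 0.873, and -0.35 without M21 of 4 weeks).

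The ratio of summed cytosolic to summed ER chaperone transcripts set the compartments against each other. In the 28 control sums the log2 ratio had a median of -1.61, with a range from -2.42 to -0.70 and an SD of 0.35 within plates. At 1 day the ratio was higher than in control cells, by 0.34 on plate 6 and 0.29 on plate 8, and the mean of 0.32 was 0.14 without the control M9 and 0.48 without the control M5 of plate 6. At 16 weeks it was lower on 5 of 6 plates, with differences of -0.57, -0.51, -0.31, -0.54 and -0.72 on plates 2, 10, 11, 12 and 13, and higher by 0.23 on plate 3 (mean -0.40). At 4 weeks the ratio was higher on both plates, by 0.33 on plate 1, with 1 sum of each diet, and by 0.94 on plate 4. The differences at 1 day, on plates 3 and 11 at 16 weeks and on plate 1 at 4 weeks were smaller than the SD between control sums of a plate. That SD is of single sums, so it does not measure the error of these differences. They compare 1 sum of each diet on plates 1, 2 and 3 and means of 3 on plates 6 and 8. At 3 days, 1 week and 9 weeks the plates went in both directions, with means of 0.11, -0.08 and -0.03. Since the genes were chosen with results known, the ratio is a description with no test.

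**Figure D3:**
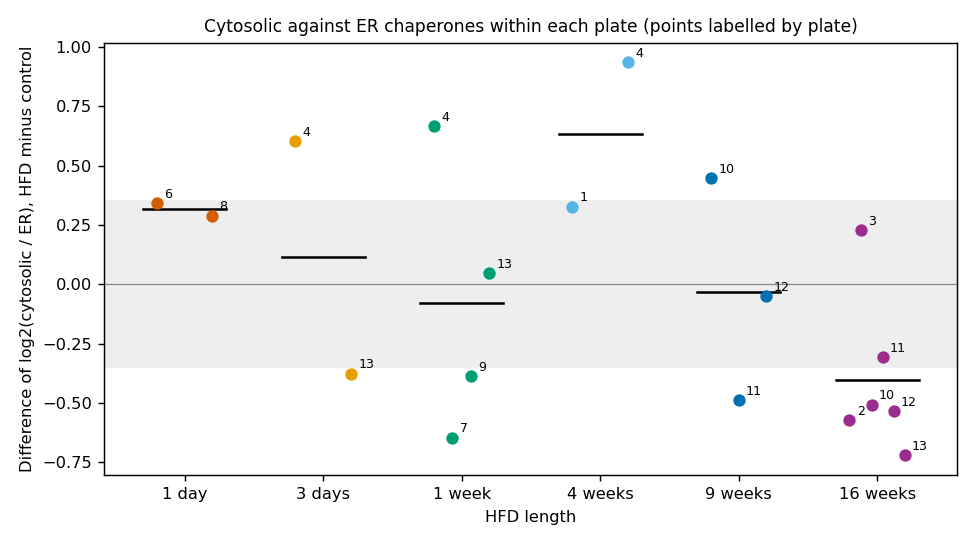
Difference, HFD minus control, of the log2 ratio of cytosolic to ER chaperone transcripts within each plate that held both diets, by HFD length. Points carry plate numbers, black bars are means over plates, and the grey band is 1 SD (0.35) of control sums within plates. Of the 16-week points, 5 of 6 lie below 0, and the 3 points of plate 4 rest on 7 control cells.

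The spread was split between plate, which entered first and with more degrees of freedom, and HFD length, so their shares cannot be ranked against each other. The share of the sum of squares of log2 CPM that lay between plates was 54.0% for Hsp90ab1, 53.4% for Hspa5, 51.6% for Hsp90b1, 46.6% for Hsp90aa1, 43.8% for Calr and 38.0% for Hspa8, where the median of the genes tested was 21.3%. It was 19.3% for Pdia6, 13% for Canx and 9.81% for Pdia3, below that median. HFD length, after plate, added 13.1% for Hsp90ab1 and 5.61 to 11.3% for the others, beside a median of 7.67%. Mean control levels differed between plates by up to 10.3 times for Hsp90ab1, from 134 CPM on plate 4 to 1380 CPM on plate 7, and by 1.80 times for Canx. The lowest Hsp90ab1 value is the 1 control sum of plate 4, with 4 transcripts, and without plate 4 the ratio was 4.11. Sets of plates with no identifier in common also differed in their replicates and in the weeks carried by well names. These cannot be told apart from the set of plates. The same replicate differed between plates too. Over the 16 replicates sorted on more than 1 plate, the highest level was a median of 1.51 times the lowest for Hsp90ab1, 1.74 times for Hsp90aa1, 1.72 times for Hspa8 and 1.27 times for Hspa5.

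**Figure D4:**
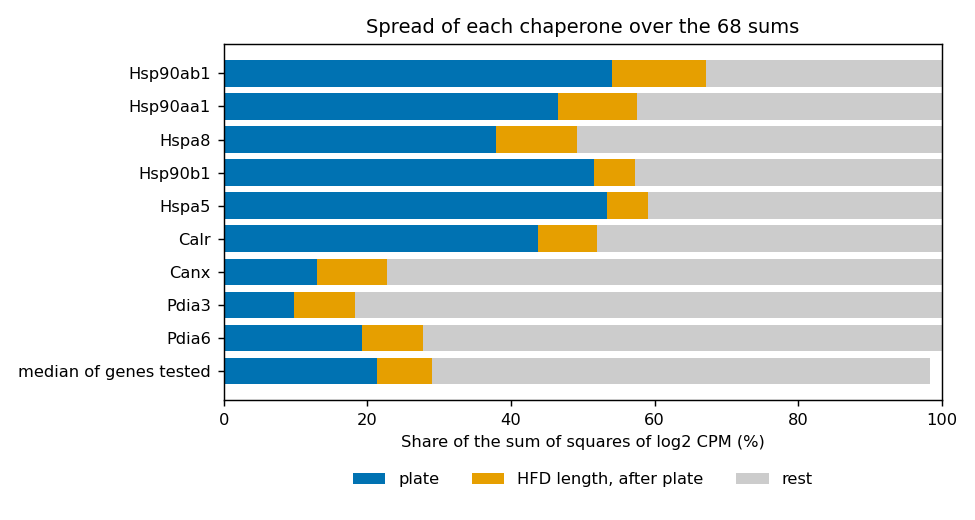
Share of the sum of squares of log2 CPM over the 68 sums that lay between plates, between HFD lengths after plate, and in the rest, for the 9 tested chaperones and as medians of all genes tested, which were taken per part and need not add to 100%. Plate holds 54.0% for Hsp90ab1 and 9.81% for Pdia3.

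With plate means removed, some members varied together across the 68 sums, which share libraries and differ in depth. Pearson's r was 0.48 between Hspa5 and Calr, 0.44 between Hsp90b1 and Hspa5 and 0.39 between Pdia3 and Pdia6. In the cytosol Hsp90ab1 and Hspa8 had an r of 0.39. Pairs across compartments reached 0.34 for Hsp90ab1 with Hsp90b1 and 0.31 for Hspa8 with Hsp90b1, and pairs within one were as low as 0.041 for Hsp90aa1 with Hspa8 and -0.040 for Hsp90b1 with Pdia6. The median r was 0.22 over the 3 cytosolic pairs, 0.18 over the 15 ER pairs and 0.10 over the 18 pairs with 1 gene of each compartment. The genes outside the list most like Hsp90ab1 were Rer1 (r = 0.52), Synj1 (0.49), Irf5 (0.48), Eif1 (0.47) and Vps4b (0.46), and those most like Calr were Ctsd (0.51), Rnf167 (0.46), Mvb12b (0.45), C1qa (0.42) and Trem2 (0.41). For comparison, 95% of other genes had an r under 0.30 with Hsp90ab1 and under 0.25 with Calr.

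**Figure D5:**
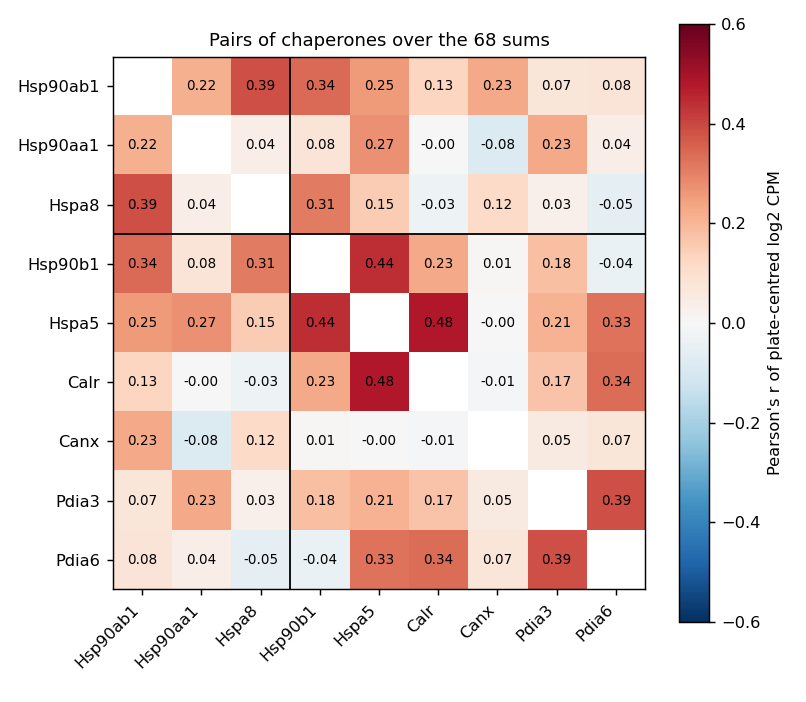
Pearson's r of plate-centred log2 CPM for each pair of the 9 tested chaperones over the 68 sums, with lines between cytosolic and ER genes. The darkest cells are Hspa5 with Calr (0.48) and Hspa5 with Hsp90b1 (0.44), and Canx has values near 0 with the other ER genes.

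Between cells of the same replicate and plate, Hsp90aa1 and Hsp90ab1 spread the most of the 10 members. In 1613 cells thinned to 1000 transcripts over the genes used, the variance around the mean of each cell's own sum was 1.39 times the mean for Hsp90aa1, 1.29 times for Hsp90ab1 and 1.24 times for Hspa5, beside 1.01 times for Pdia6 and a median of 1.09 times over the genes tested. Before thinning, the highest count in a cell was 26 transcripts for Hsp90ab1, at 4 weeks, and 24 for Hsp90aa1, in a control cell. At the HFD lengths Hsp90aa1 reached at most 6, and the part of single cells in its spread was not tested. When the cells of each plate were split at their median depth, Hspa8, Hsp90b1, Pdia3 and Pdia4 were higher in the deeper cells on 10 of 13 plates, with median ratios of 1.25, 1.10, 1.14 and 1.75, and Calr was higher on 4 of 13 plates (0.94), beside 0.98 over the genes tested. Hsp90ab1 was higher in the deeper cells on 7 of 13 plates (1.04).

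Other genes of the folding machinery gave no called gene at any length. Of 32 genes of ER folding and quality control, 18 were tested. Those with positive log2 changes numbered 15 at 1 day (median 0.12), 10 at 1 week (0.04), 15 at 4 weeks (0.18), 14 at 9 weeks (0.13) and 10 at 16 weeks (0.03), beside medians between -0.01 and 0.01 over all genes tested. Those with an unadjusted p under 0.05 numbered 0 at 1 day, 1 at 1 week, 2 at 4 weeks, 1 at 9 weeks and 1 at 16 weeks, beside 4.88%, 4.2%, 4.11%, 6.34% and 4.75% of all genes tested. The lowest at 4 weeks was that of Edem1, a lectin of ER-associated degradation (log2 0.66, adjusted p = 0.997), and at 9 and 16 weeks that of Derl2, a membrane protein of the same pathway (0.67 and 0.50).

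Of 21 cytosolic co-chaperones and HSP70 or HSP40 proteins, 5 were tested. Dnaja1, the HSP40 partner of HSC70, had the lowest p among them at 4 of the 5 tested lengths, with log2 changes of 0.37 at 1 day, -0.68 at 1 week, 0.82 at 9 weeks (unadjusted p = 0.0123, adjusted p = 0.659) and -0.41 at 16 weeks. Of the 14 chaperonin and prefoldin genes, 5 were tested, and Cct6a had the lowest p at 1 day (log2 0.92, unadjusted p = 0.0169, adjusted p = 0.851). Of the unfolded protein response genes, 3 were tested, Xbp1, Atf4 and Atf6, and none had an unadjusted p under 0.05 at a tested length. The mitochondrial Hspe1 and the class I loading genes Tapbp and B2m had none either. Of the 5 immediate early genes tested, which respond to handling of cells as well as to stimuli, 3 were lower at 9 weeks with an unadjusted p under 0.05, beside 6.34% of all genes tested, with Jun at log2 -1.22 (adjusted p = 0.63 by edgeR), at the length where Hsp90aa1 was lower. Before adjustment, Fos was higher at 1 week (log2 1.25, unadjusted p = 0.0136, adjusted p = 0.999 by edgeR). Jun was lower at 16 weeks in the same way (log2 -0.49, unadjusted p = 0.0483, adjusted p = 0.977 by edgeR). Each was the 1 of the 5 immediate early genes under an unadjusted p of 0.05, beside 4.2% and 4.75% of all genes tested. Their part in the Hsp90aa1 values was not tested.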

How the data were processed

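Single microglia on 13 plates were analysed. The authors trimmed barcodes with Cutadapt, mapped to GRCm38/mm10 with STAR and counted with featureCounts in snakePipes. The deposited values are estimated counts of transcripts per gene and well, that is, unique molecular identifiers corrected for chance repeats, with no normalization. The RaceID3 batch correction by plate is not in them. Diet, length and replicate came from the authors' table of wells. The 447 genes absent from the filtered table, which held 23.1% of transcripts, were not used. All plates use the same 192 well barcodes, and wells are kept apart by plate. Cells were sorted singly, so no doublet caller was run.

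Estimated counts of cells with at least 1500 transcripts were summed per replicate and plate (at least 5 cells), and rounded, and edgeR 4.0.16 in R 4.3.3 fitted them by quasi-likelihood (TMM, filterByExpr) with plate and HFD length as terms, all lengths in one model, and Benjamini-Hochberg adjustment at 0.05. DESeq2 1.42.0 was an alternative. SE is the log2 change over the root of F. Promoters were searched in python 3.11.15. CPM is transcripts per 1000000 over the 17280 genes used. The members, the gene lists and the tests were chosen with earlier results of these data known. Members are named singly where the text describes them and otherwise by range and count, and of each other list the gene with the lowest p at lengths of interest was named, chosen after its values were seen. The differences between lengths and the setting without plates 4 and 5 were added after seeing the data. Protein sequences were not analysed here.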

Additional observations from a re-analysis of the deposited data

Results flagged for a closer look

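In the 16-week group the Hsp90ab1 level of replicate L4, sorted on plates 2 and 3, stood far from the other 4 replicates. It held 1074 CPM, the next replicate 380 CPM and the lowest 176 CPM, so that the gap to the next replicate was 0.772 of the whole range. The control replicate of the same plates was also high, at 949 and 1288 CPM, and the part of the plates in this distance was not tested. Of 40 combinations of gene and group with 4 to 10 replicates, this was the 1 that stood apart. The limit on the gap is set so that about 1 in 20 combinations would pass it by chance if levels were normally distributed. That rate was not measured here.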

How the results depend on the processing

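No tested member passed the adjusted threshold at 1 day, 1, 4, 9 or 16 weeks under any alternative. Of 537 member values at these lengths, 55 changed sign, and of 1980 values with 1 replicate left out (44 fits), 41 did. The genes called, 0 in each contrast, numbered 3, 29, 16, 23 and 1 at 1 day, 3 days, 1, 4 and 16 weeks without the plate term, and 6, 6, 12, 4 and 4 at 3 days, 1, 4, 9 and 16 weeks without a filter on low counts. That setting moved the median of all genes by 0.22 at 3 days and 0.10 at 1 week on the log2 scale. With sums over linked plates 1, 7 and 1 were called at 3 days, 4 and 16 weeks, with sums of 1 length on 1 plate 3, 8 and 1 at 1, 4 and 16 weeks, in fits of 1 length on its own plates 3 and 1 at 1 and 9 weeks, with DESeq2 1 at 9 weeks, and without plates 4 and 5 they numbered 1, 9, 2 and 2 at 3 days, 1, 4 and 16 weeks. With 1 replicate left out, 0 to 1 were called at 1 week, 0 to 4 at 4 weeks, 0 to 1 at 16 weeks and 0 elsewhere. The causes were not tested. With DESeq2 the log2 change became 0.018 for Hsp90aa1 at 4 weeks and 0.022 for Hspa8 at 9 weeks. With DESeq2 size factors the log2 change was 0.0038 for Hspa8 at 9 weeks. With cells of at least 1000 transcripts the log2 change became -0.030 for Canx at 9 weeks, 0.0081 for Hsp90aa1 at 4 weeks and -0.0083 for Hsp90ab1 at 9 weeks. Without a filter on low counts the log2 change became -0.018 for Calr at 9 weeks, -0.041 for Canx at 9 weeks, 0.049 for Hsp90aa1 at 4 weeks and -0.049 for Hsp90ab1 at 9 weeks. Without the plate term the log2 change became -0.23 for Calr at 9 weeks, -0.011 for Calr at 16 weeks, -0.53 for Hsp90ab1 at 9 weeks, 0.19 for Hsp90b1 at 1 day, -0.00038 for Hsp90b1 at 1 week, -0.0031 for Hsp90b1 at 4 weeks, -0.055 for Hspa5 at 16 weeks, 0.11 for Hspa8 at 1 week, 0.079 for Pdia6 at 1 week and -0.0096 for Pdia6 at 9 weeks. In fits of 1 length on its own plates the log2 change became -0.31 for Calr at 4 weeks, -0.014 for Canx at 9 weeks, 0.24 for Hsp90aa1 at 4 weeks, -0.19 for Hsp90ab1 at 1 week, -0.095 for Hsp90b1 at 1 week, 0.049 for Hsp90b1 at 9 weeks, 0.046 for Hspa8 at 9 weeks, -0.013 for Pdia3 at 4 weeks and -0.16 for Pdia6 at 4 weeks. With sums of 1 length on 1 plate the log2 change became -0.021 for Calr at 9 weeks, -0.0054 for Calr at 16 weeks, -0.00097 for Canx at 4 weeks and -0.0093 for Hsp90ab1 at 9 weeks. With sums over linked plates the log2 change became -0.016 for Canx at 9 weeks, 0.0074 for Hsp90aa1 at 4 weeks and -0.043 for Hsp90ab1 at 9 weeks. Without cells with markers of other types the log2 change became -0.099 for Calr at 9 weeks, -0.080 for Canx at 1 week, -0.13 for Canx at 4 weeks, -0.013 for Canx at 9 weeks, 0.14 for Hsp90aa1 at 4 weeks, -0.076 for Hsp90ab1 at 1 week, -0.095 for Hsp90b1 at 1 week, 0.044 for Hsp90b1 at 9 weeks and -0.033 for Pdia6 at 9 weeks. Without plates 4 and 5, a setting added after seeing the data, the log2 change became -0.26 for Calr at 4 weeks, -0.014 for Canx at 9 weeks, 0.10 for Hsp90aa1 at 4 weeks, -0.26 for Hsp90ab1 at 1 week, -0.015 for Hsp90ab1 at 9 weeks, -0.089 for Hsp90b1 at 1 week, -0.13 for Hsp90b1 at 4 weeks, -0.14 for Hspa5 at 4 weeks, -0.16 for Pdia3 at 4 weeks and -0.47 for Pdia6 at 4 weeks. With 1 replicate left out the log2 change ran from -0.13 to 0.19 for Calr at 9 weeks, -0.18 to 0.23 for Calr at 16 weeks, -0.097 to 0.17 for Canx at 4 weeks, -0.073 to 0.11 for Canx at 9 weeks, -0.14 to 0.19 for Hsp90aa1 at 4 weeks, -0.099 to 0.50 for Hsp90ab1 at 1 week, -0.042 to 0.038 for Hsp90ab1 at 9 weeks, -0.023 to 0.12 for Hsp90b1 at 1 week, -0.13 to 0.0083 for Hsp90b1 at 9 weeks, -0.065 to 0.23 for Hspa5 at 16 weeks, -0.17 to 0.15 for Hspa8 at 9 weeks, -0.015 to 0.16 for Pdia6 at 1 day and -0.21 to 0.29 for Pdia6 at 9 weeks. For Hsp90ab1 at 1 week this range was set by M23 and by the control M1. The log2 ratio difference between compartments with 1 replicate left out ran from 0.14 to 0.48 at 1 day, -0.38 to 0.16 at 3 days, -0.33 to 0.11 at 1 week, 0.33 to 0.94 at 4 weeks, -0.084 to 0.013 at 9 weeks and -0.52 to -0.30 at 16 weeks, and without plates 4 and 5 it was -0.38 at 3 days. The lowest values at 3 days, 1 week and 4 weeks are those without M26. Thinned to 1000 transcripts per cell, the shares of cells with a transcript were 59.7% (Hsp90b1), 46.6% (Calr), 46.6% (Hspa5), 45.8% (Hsp90ab1), 32.7% (Canx), 28.1% (Pdia3), 26.7% (Hspa8), 24.9% (Pdia6), 13.6% (Hsp90aa1) and 3.09% (Pdia4). Diets could not be paired by replicate, because each identifier of a set of plates belongs to 1 diet and the labels put all plates in 1 group. Sums were therefore matched by the plate term alone. Depth limits Hsp90aa1, with a median of 7 transcripts per sum, and Pdia4, with 2.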
